A study of Mus with 16 samples.

Results

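Genes that write the H3 lysine 4 methylation (H3K4me) mark were examined in the developing forebrain of mice with loss of the H3K4me eraser KDM5C. *Kdm1a*, which encodes another H3K4 eraser, LSD1, was examined with them. The 9 genes were chosen by their Ensembl identifiers out of the 54219 genes of the count table, and all 9 passed the filter on low counts, along with 17866 genes in total. They comprise 6 methyltransferases (*Kmt2a*, *Kmt2b*, *Kmt2c*, *Kmt2d*, *Setd1a*, and *Setd1b*), 2 subunits of the enzyme core (*Wdr5* and *Ash2l*), and 1 demethylase (*Kdm1a*). The samples were cortices and hippocampi of 16 mice at postnatal day 6 (P6), with 4 animals in each of 4 groups: males that were WT or *Kdm5c*-KO, and females that were WT or *Kdm5c*-HET. *Kdm5c* is X-linked, so the hemizygous *Kdm5c*-KO males had no intact copy and the *Kdm5c*-HET females kept 1. The mutant allele is a Cre-mediated deletion of a pair of exons, carried in all cells of mice whose background mixes the C57BL/6J and 129S1/SvImJ strains, and the animals came from 3 litters. The labels name no mutation of a writer gene.

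H3K4 methyltransferases work in large complexes named COMPASS, in which a catalytic subunit is held by a shared core that includes WDR5 and ASH2L. In mammals, SETD1A and SETD1B account for much of the trimethylation at active promoters, KMT2A and KMT2B act at selected promoters, and KMT2C and KMT2D place the monomethyl mark of enhancers. KDM5C removes the higher methylation states, whereas LSD1 removes the mono- and dimethyl states, often within the CoREST corepressor complex. Mutations of several of these genes, *KDM5C* included, cause neurodevelopmental disorders in humans.

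Each library held between 21513783 and 30063352 gene counts. The forebrain marker *Emx1* was found in every animal, at 27.4 to 41.0 CPM (a gene's share of the library, normalized by TMM); 12 of 73 fixed cell type markers could be matched to an identifier. *Kdm5c* itself was not analysed here because no source used here pairs it with an identifier. Animal names carry a letter, D or E, whose meaning the labels do not give; the D to E ratio was 3 to 1 for WT males, 2 to 2 for *Kdm5c*-KO males and for WT females, and 1 to 3 for *Kdm5c*-HET females. Of 7 choroid plexus markers, 2 were matched (*Ttr* and *Aqp1*), and their summed level stood at 204.6 and 204.5 CPM in WT males 2D and 5D, 183.9 and 194.6 in WT females 1D and 3D, and 86.6 and 58.7 in *Kdm5c*-HET females 8E and 9E, against 1.48 to 6.37 in the other 10 animals. Of 5 erythrocyte markers, 4 globin genes were matched, and their sum was 118.1 to 146.4 CPM in males that were WT and 66.1 to 106.8 in the knockouts, and 90.8 to 104.2 CPM in females that were WT and 96.2 to 103.3 in the heterozygotes. None of the matched markers was at 0 in any animal. The matched markers took their identifiers from the study's own list of changed genes, chosen on these animals. Their differences between groups are therefore not independent evidence.

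The genes lie on separate chromosomes for the most part, and all are autosomal. In mouse assembly GRCm38.p6 (mm10), RefSeq places *Kmt2a* (ENSMUSG00000002028) at chr9:44803355-44881352, *Kmt2b* (ENSMUSG00000006307) at chr7:30568855-30589056, *Kmt2c* (ENSMUSG00000038056) at chr5:25271795-25498855, and *Kmt2d* (ENSMUSG00000048154) at chr15:98831669-98874077. *Setd1a* (ENSMUSG00000042308) spans chr7:127777389-127800122 and *Setd1b* (ENSMUSG00000038384) chr5:123142040-123168630. *Wdr5* (ENSMUSG00000026917) lies at chr2:27515147-27536535, *Ash2l* (ENSMUSG00000031575) at chr8:25816000-25847694, and *Kdm1a* (ENSMUSG00000036940) at chr4:136550533-136602787. The span of *Kdm1a* overlaps the protein-coding gene *Luzp1*, and those of *Kmt2a* and *Kmt2b* each overlap 1 lncRNA (*Gm39326* and *Gm32082*); that of *Kmt2c* overlaps 2 pseudogenes, and the other 5 overlap no annotated gene. The strand setting of the counting is not given in the sources used here, so reads of these overlapping genes may not be fully separated.

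**Figure D1:**
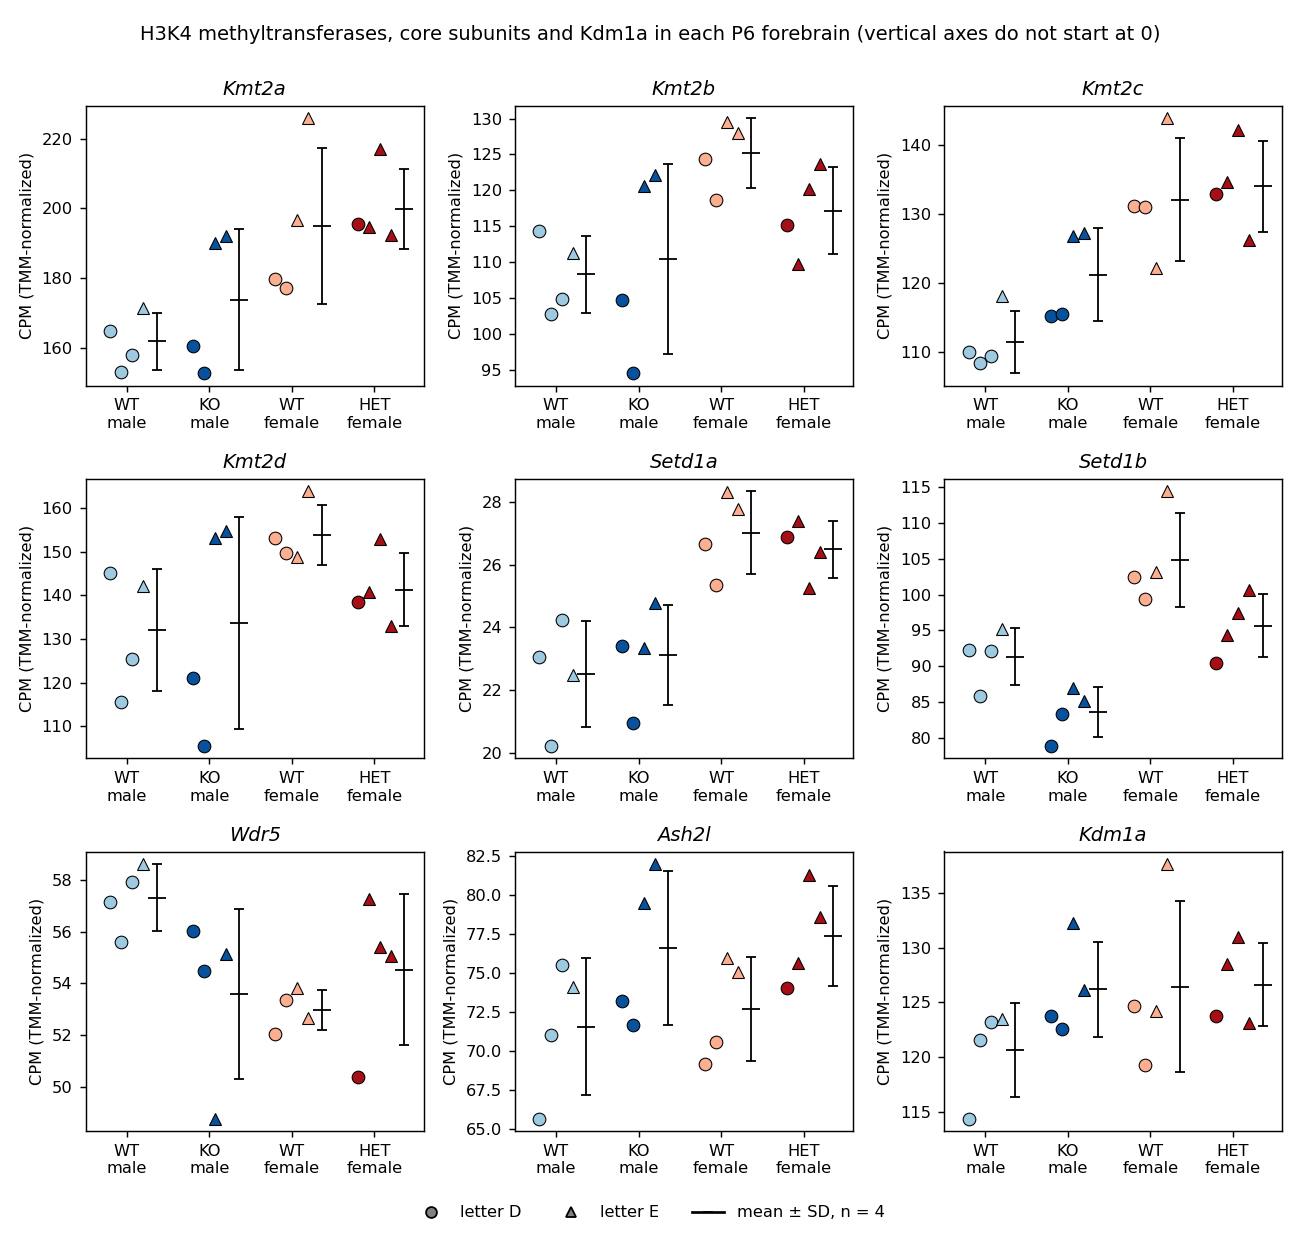
CPM (TMM-normalized) of each gene in each animal, with circles for animals of letter D, triangles for letter E, and the mean ± SD of the 4 animals beside them. *Setd1b* is lower in mutants of either sex, from a mean of 91.3 to 83.6 CPM in males and from 104.8 to 95.7 CPM in females, and WT females lie above all WT males for the 6 methyltransferases.

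In the fit without covariates, *Setd1b* was the only member called for *Kdm5c* genotype, and only with both sexes in 1 estimate. Its mean was lower in the mutants of both sexes. Its level was 92.3, 85.8, 92.1, and 95.2 CPM in the WT males 2D, 5D, 7D, and 1E, and 79.0, 83.4, 87.0, and 85.2 CPM in the *Kdm5c*-KO males 4D, 6D, 2E, and 3E. Only WT male 5D fell within the range of the knockouts. In WT females 1D, 3D, 4E, and 5E, it was 102.4, 99.4, 103.1, and 114.4 CPM, and in *Kdm5c*-HET females 9D, 6E, 8E, and 9E it was 90.4, 94.3, 97.5, and 100.6 CPM. Only *Kdm5c*-HET female 9E exceeded the lowest WT female. With both sexes in 1 estimate and sex held fixed (the mean of the effects in males and females), *Setd1b* fell by 0.13 on the log2 scale (SE 0.04, 95% interval −0.20 to −0.05, q = 0.0504, where q is edgeR's quasi-likelihood p adjusted by the Benjamini-Hochberg method over all genes tested and the threshold is 0.1). It was 1 of 9 members past that threshold, against 5.12% of all genes tested in either direction and 1.49% that were lower. A single call among 9 genes is too few to set the members apart from these shares.

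Within each sex alone, *Setd1b* did not pass the threshold. The exact two-sided permutation test of CPM, 4 against 4 animals, gave p = 0.0571 in males and in females. After adjustment over 27 tests of this kind, p was 0.154 in either sex. Its Log2FC was −0.13 in males (SE 0.05, 95% interval −0.23 to −0.02, q = 0.207) and −0.13 in females (SE 0.05, 95% interval −0.24 to −0.03, q = 0.580). The difference of these effects, males minus females, was 0.00 (95% interval −0.14 to 0.15, q = 0.997). Ordered by mean, the level ran from *Kdm5c*-KO males through WT males and *Kdm5c*-HET females to WT females, and each group overlapped its neighbour in that order. The letter moved with the level as well, since animals of letter E had more *Setd1b* than animals of letter D in the fit with group held fixed (Log2FC 0.10, q = 0.0277). Within letter D, the mean was 81.2 CPM in 2 *Kdm5c*-KO males and 90.1 in 3 WT males, and 90.4 CPM in 1 *Kdm5c*-HET female and 100.9 in 2 WT females. Within letter E, it was 86.1 CPM in 2 *Kdm5c*-KO males and 95.2 in 1 WT male, and 97.4 CPM in 3 *Kdm5c*-HET females and 108.7 in 2 WT females. The mutants were thus lower in all 4 within-letter comparisons, by 0.14 to 0.16 on the log2 scale. With the letter as a covariate, the Log2FC was −0.15 in males (edgeR q = 0.027, with 0.027 to 0.438 over all alternatives), −0.15 in females (edgeR q = 0.0845, with 0.0845 to 0.902), and −0.15 for both (edgeR q = 0.00171, with 0.00171 to 0.107). The call for both sexes was lost without *Kdm5c*-HET female 6E (Log2FC −0.13, edgeR q = 0.107) and was kept without any other single animal. Without the 6 animals high in *Ttr* and *Aqp1*, the Log2FC was −0.20 (edgeR q = 0.0648). The globin sum was also lower in *Kdm5c*-KO males than in WT males, without overlap, and its part in the result was not tested. In bulk tissue, fewer cells that express a gene and less RNA per cell cannot be told apart.

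**Figure D2:**
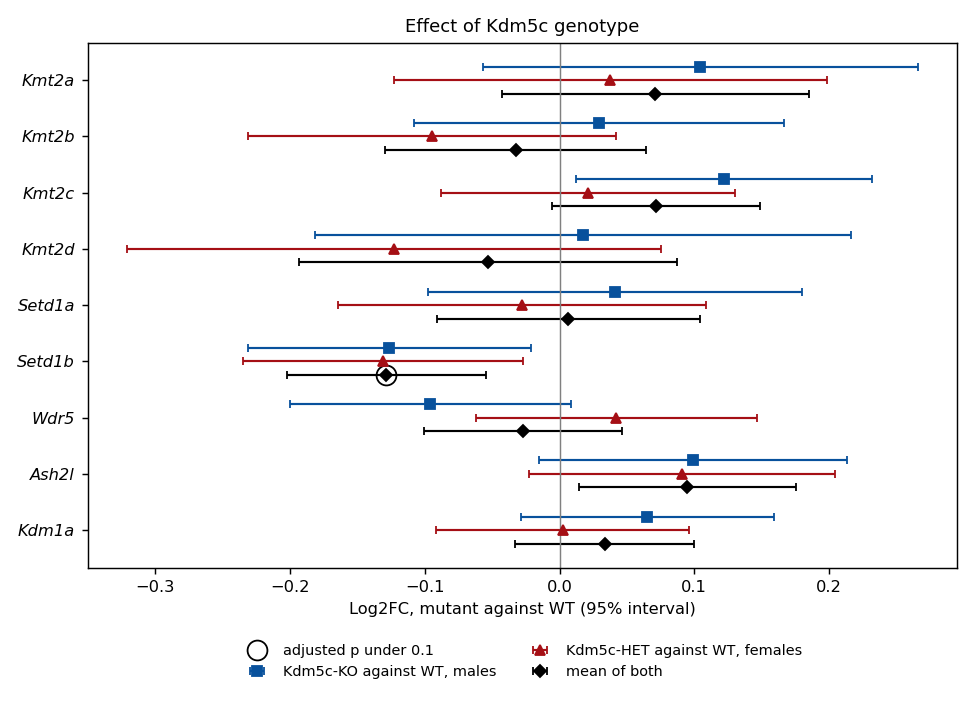
Log2FC of each gene between mutants and WT with its 95% interval from the edgeR fit, for males (squares), females (triangles), and the mean of both (diamonds); a ring marks an adjusted p under 0.1. The ring is on *Setd1b* alone, for the mean of both sexes at −0.13. *Kmt2a*, *Kmt2c*, *Ash2l*, and *Kdm1a* lie to the right of 0 in all 3 estimates.

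In males with complete loss of *Kdm5c*, 0 of 9 members passed the threshold by edgeR or by DESeq2, against 5.24% of all genes. At an unadjusted p under 0.05, 2 members passed in males (*Setd1b* and *Kmt2c*), against 16.5% of all genes. *Kmt2c*, one of the enhancer monomethyltransferases, was at 109.9, 108.3, 109.3, and 118.1 CPM in the WT males 2D, 5D, 7D, and 1E and at 115.2, 115.5, 126.8, and 127.2 CPM in the knockouts 4D, 6D, 2E, and 3E. The groups overlapped only through WT male 1E. Its Log2FC was 0.12 (95% interval 0.01 to 0.23, unadjusted p = 0.031, edgeR q = 0.250). *Kmt2d*, its close relative, had the widest spread of the 9 genes, from 105.6 to 154.8 CPM within the *Kdm5c*-KO males, and a Log2FC of 0.02 (95% interval −0.18 to 0.22). *Kmt2a*, which encodes MLL1, averaged 161.7 ± 8.06 CPM in WT males and 173.8 ± 20.2 in *Kdm5c*-KO males (SD, n = 4), a Log2FC of 0.10 (95% interval −0.06 to 0.27, q = 0.552). *Kmt2b* and *Setd1a* had values of 0.03 (−0.11 to 0.17) and 0.04 (−0.10 to 0.18). None of the 9 genes separated the animals without overlap, whereas 8.91% of all genes did so in males.

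The core subunits pointed in different directions in males. *Wdr5*, whose protein presents the histone tail to the enzyme, was at 57.1, 55.6, 57.9, and 58.6 CPM in WT males and at 56.0, 54.5, 48.8, and 55.1 CPM in *Kdm5c*-KO males. Knockout 2E was the lowest of the 8. The Log2FC was −0.10 (95% interval −0.20 to 0.01, q = 0.350), and −0.05 without knockout 2E. *Ash2l*, which stimulates the catalytic subunit, had a Log2FC of 0.10 (95% interval −0.01 to 0.21, q = 0.383), and *Kdm1a* one of 0.06 (95% interval −0.03 to 0.16, q = 0.515).

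In *Kdm5c*-HET females, 0 of 9 members passed the threshold by edgeR or by DESeq2, against 0.509% of all genes, and *Setd1b* alone had an unadjusted p under 0.05 (0.0163), against 6.49% of all genes. *Kmt2d* was at 153.2, 149.7, 148.7, and 163.9 CPM in the WT females 1D, 3D, 4E, and 5E and at 138.5, 140.8, 152.8, and 133.0 CPM in the heterozygotes 9D, 6E, 8E, and 9E. Heterozygote 8E lay within the WT range and the other 3 below it. The Log2FC was −0.12 (95% interval −0.32 to 0.08, q = 0.953). *Kmt2b*, the MLL2 gene, averaged 125.2 ± 4.85 CPM in the WT and 117.2 ± 6.06 in the heterozygotes (SD, n = 4), with a Log2FC of −0.09 (95% interval −0.23 to 0.04, q = 0.937). For *Kmt2a*, *Kmt2c*, and *Setd1a*, the estimates lay between −0.03 and 0.04. *Kdm1a* had an estimate of 0.00 (95% interval −0.09 to 0.10), the narrowest interval of the 9 genes. *Wdr5* and *Ash2l* had estimates of 0.04 (−0.06 to 0.15) and 0.09 (−0.02 to 0.20). No member separated heterozygous from WT females without overlap, as 4.47% of all genes did.

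*Kmt2a*, *Kmt2c*, *Ash2l*, and *Kdm1a* had positive estimates in males, in females, and for both. Of these, *Ash2l* had the lowest unadjusted p for the mean effect. In males it averaged 71.5 ± 4.37 CPM in WT and 76.6 ± 4.93 in knockouts, and in females 72.7 ± 3.33 CPM in WT and 77.3 ± 3.21 in heterozygotes (SD, n = 4). The mean effect was 0.09 (95% interval 0.01 to 0.18, unadjusted p = 0.0232, edgeR q = 0.229), which did not pass the threshold. It was 0.07 with the letter as a covariate (edgeR q = 0.280) and 0.0094 without the 6 animals high in *Ttr* and *Aqp1* (edgeR q = 0.990), with q between 0.140 and 0.990 over all alternatives. The groups overlapped within either sex. For the sex by genotype interaction, 0 members passed the threshold by edgeR or by DESeq2, against 0.0392% of all genes, and 0 had an unadjusted p under 0.05. The only negative estimate was that of *Wdr5*, whose Log2FC was −0.10 in males and 0.04 in females (difference −0.14, 95% interval −0.29 to 0.01, q = 0.777). On the scale of the Log2FC, the intervals of the genotype effects spanned −0.23 to 0.27 in males and −0.32 to 0.20 in females over the 9 genes. The pooled SD of log2 CPM within groups ran from 0.06 for *Kdm1a* to 0.16 for *Kmt2d*, against a median of 0.14 over all genes tested and 0.08 over the 6063 genes of similar level. Among the latter, *Kmt2d* stood at percentile 94.4, *Kmt2a* at 87.1, and *Kmt2b* at 75.7.

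Between WT animals, 5 of the 6 methyltransferase genes were higher in females than in males, and the core subunits and *Kdm1a* did not pass the threshold. The study reports more *Kdm5c* RNA in WT female than in WT male forebrains. Sex and the dose of *Kdm5c* therefore cannot be told apart here. For *Kmt2a*, the values were 164.7, 152.9, 157.9, and 171.4 CPM in WT males 2D, 5D, 7D, and 1E and 179.8, 177.1, 196.6, and 225.9 CPM in WT females 1D, 3D, 4E, and 5E. Every female lay above every male, and female 5E stood highest. *Setd1a* was at 23.1, 20.2, 24.2, and 22.5 CPM in the WT males and at 26.7, 25.3, 28.3, and 27.8 CPM in the WT females. *Kmt2c* ran from 108.3 to 118.1 CPM in WT males and from 122.2 to 143.8 CPM in WT females, again without overlap. In edgeR, 5 of 9 members were called and all 5 were higher in females, against 5.0% of all genes in either direction and 2.59% that were higher. The Log2FC was 0.27 for *Kmt2a* (SE 0.08, q = 0.0735), 0.25 for *Kmt2c* (SE 0.05, q = 0.0317), and 0.26 for *Setd1a* (SE 0.07, q = 0.0453). It was 0.20 for *Setd1b* (SE 0.05, q = 0.0466) and 0.21 for *Kmt2b* (SE 0.07, q = 0.0997). *Kmt2d*, at 0.22, was more variable and did not pass (95% interval 0.02 to 0.42, q = 0.223). *Wdr5* was at 55.6 to 58.6 CPM in WT males and 52.1 to 53.8 CPM in WT females, a Log2FC of −0.11 (95% interval −0.22 to −0.01, q = 0.232). *Ash2l* and *Kdm1a* had estimates of 0.02 (−0.09 to 0.14) and 0.07 (−0.03 to 0.16). WT females and WT males did not overlap for 7 of 9 members, the 6 methyltransferases and *Wdr5*, against 10.6% of all genes. For each of these 7, the exact two-sided permutation test gave p = 0.0286, the smallest that 4 against 4 animals allow, and 0.11 after adjustment over the 27 tests of this kind.

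These sex calls rested on few animals. With the letter as a covariate, the same 5 genes were called, at a Log2FC of 0.17 to 0.25. Without WT male 5D or without WT female 5E, none was called, and the Log2FC of these 5 genes was then 0.17 to 0.24 and 0.15 to 0.25. Over all genes, 73 and 69 were then called, in place of 894. Without WT male 7D, only *Kmt2c* and *Setd1a* were called, and without WT female 4E, only *Kmt2c* and *Setd1b*. *Kmt2a* also dropped out without WT male 2D. *Kmt2b*, closest to the threshold, was called in 5 of the 16 fits that left out 1 animal. Of the WT animals, 2 males and 2 females, all of letter D, were high in *Ttr* and *Aqp1*. The part of these markers in the result was not tested. Without the 6 animals high in them, 0 members were called by edgeR, 5 had an unadjusted p under 0.05, and the Log2FC of the 5 genes was 0.21 to 0.36. The globin sum was higher in WT males than in WT females without overlap, and its part in the result was not tested.

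**Figure D3:**
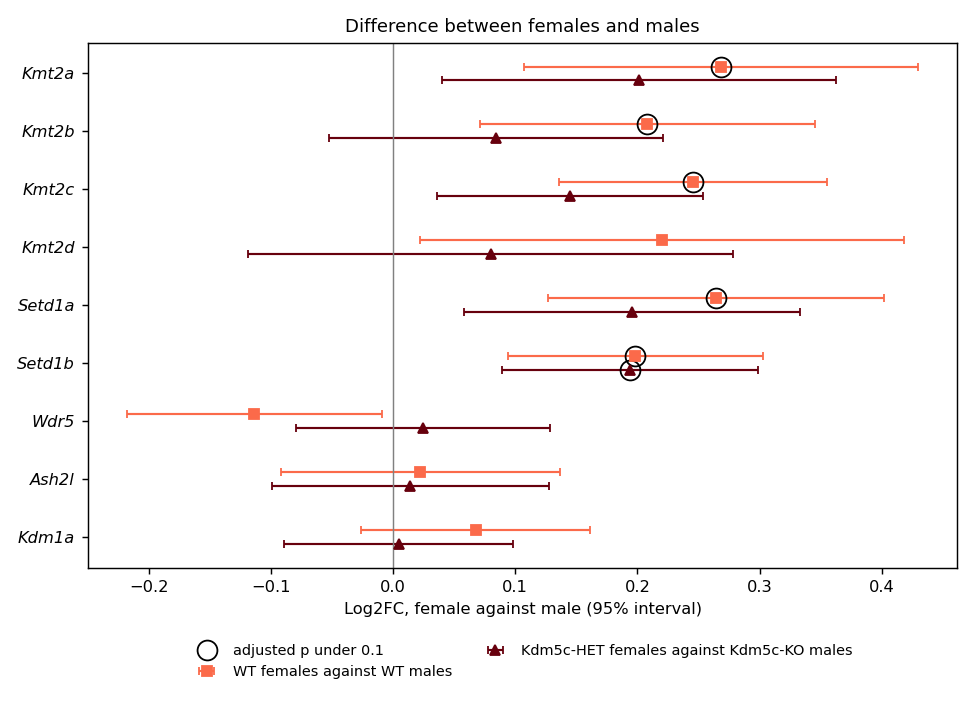
Log2FC of each gene between females and males with its 95% interval from the edgeR fit, for WT animals (squares) and for *Kdm5c*-HET females against *Kdm5c*-KO males (triangles); a ring marks an adjusted p under 0.1. In WT animals, the 6 methyltransferases lie between 0.20 and 0.27 and *Wdr5* at −0.11, and in mutants the ring is on *Setd1b* alone, at 0.19.

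Mutant females and mutant males, a comparison added after seeing the data, gave positive estimates for all 9 members, against 50.5% of all genes. Those of *Wdr5*, *Ash2l*, and *Kdm1a* were near 0, at 0.024, 0.014, and 0.0048. Sex and the dose of *Kdm5c* cannot be told apart in this comparison either. *Kdm5c*-HET females had 192.3 to 217.0 CPM of *Kmt2a*, against 152.7 to 192.0 CPM in *Kdm5c*-KO males, and 25.3 to 27.4 CPM of *Setd1a*, against 20.95 to 24.8 CPM. *Setd1b* ranged from 90.4 to 100.6 CPM in the females and from 79.0 to 87.0 CPM in the males. These 3 genes did not overlap between the groups, against 7.85% of all genes. In edgeR, 1 of 9 members was called, *Setd1b*, which was higher in mutant females at a Log2FC of 0.19 (SE 0.05, q = 0.0792), against 1.57% of all genes in either direction and 0.638% that were higher. *Kmt2a* had 0.20 (95% interval 0.04 to 0.36, q = 0.253) and *Setd1a* 0.20 (95% interval 0.06 to 0.33, q = 0.188). The *Setd1b* call was lost in 7 of the 16 fits that left out 1 animal, those without WT female 1D, WT male 7D, *Kdm5c*-HET female 6E, 8E, or 9E, or *Kdm5c*-KO male 4D or 6D. Over all 16 such fits, its Log2FC was 0.16 to 0.22. It was also lost with only the 8 mutants in the fit (Log2FC 0.19, edgeR q = 0.108) and without the 6 animals high in *Ttr* and *Aqp1* (Log2FC 0.14, edgeR q = 0.591), with q between 0.0206 and 0.591 over all alternatives. Of these mutants, *Kdm5c*-HET females 8E and 9E and no *Kdm5c*-KO male were high in these markers, whose part in the result was not tested. The effects of sex in WT and in mutants differ by the interaction given above, for which no member passed.

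The letter in the animal names moved with most of the members. With group held fixed, 5 of 9 members were called as higher in animals of letter E, against 23.6% of all genes in either direction and 11.6% that were higher. *Kmt2a* had a Log2FC of 0.18 between E and D (SE 0.04, edgeR q = 0.00142), with *Kdm5c*-KO males at 160.4 and 152.7 CPM in 4D and 6D and at 190.1 and 192.0 CPM in 2E and 3E. *Kmt2d* showed the same split among those males, at 121.0 and 105.6 CPM in letter D and 153.1 and 154.8 CPM in letter E, and a Log2FC of 0.18 (SE 0.06, edgeR q = 0.0306). *Kmt2b*, *Setd1b*, and *Ash2l* followed at 0.12 (edgeR q = 0.0289), 0.10 (edgeR q = 0.0277), and 0.11 (edgeR q = 0.0183). *Kdm1a*, *Kmt2c*, and *Setd1a* had positive estimates that did not pass, at 0.07, 0.07, and 0.06. *Wdr5* had 0.02 (95% interval −0.06 to 0.10). This comparison was also added after seeing the data, and what the letter stands for was not available to test.

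**Figure D4:**
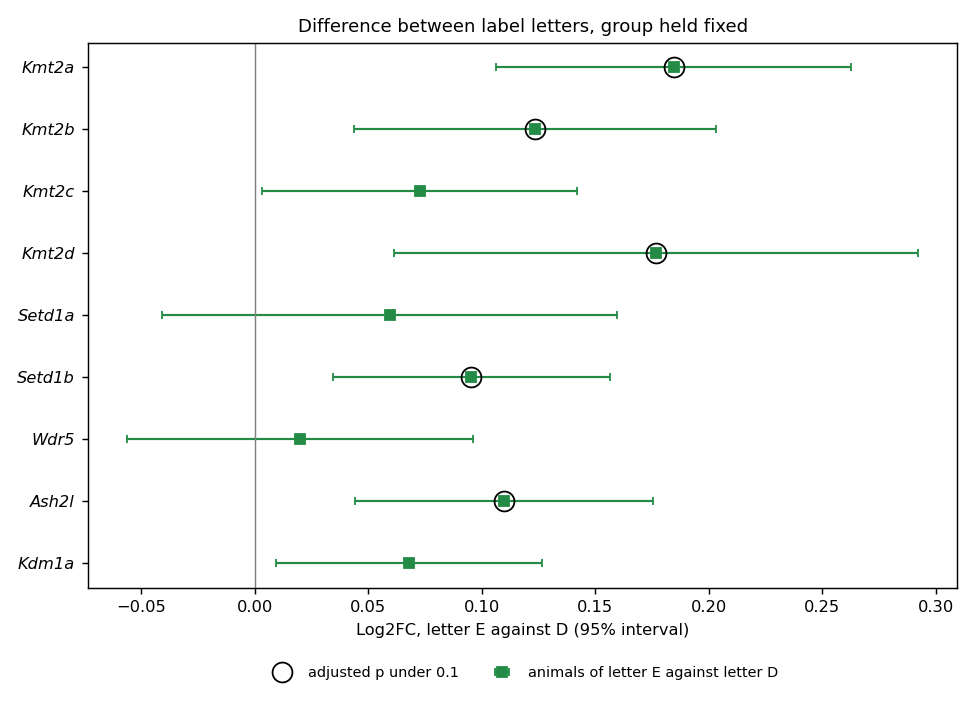
Log2FC of each gene between animals of letter E and letter D, with group held fixed, and its 95% interval from the edgeR fit; a ring marks an adjusted p under 0.1. The rings are on *Kmt2a* (0.18), *Kmt2d* (0.18), *Kmt2b* (0.12), *Ash2l* (0.11), and *Setd1b* (0.10), and *Wdr5* lies at 0.02.

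Among animals of the same group, the levels of 5 of the 6 methyltransferase genes were correlated in 7 of their 10 pairs, whereas no pair with *Setd1a* or *Wdr5* passed. Over 16 animals, with each gene's group mean of log2 CPM removed, the correlation was positive in 15 of 15 pairs of methyltransferases, with a median Pearson r of 0.54, and 7 of these pairs had an adjusted permutation p under 0.1 by Pearson's r and 5 by Spearman's rho (exact, within groups). None of the 5 pairs with *Setd1a* passed, and its r with *Kmt2c* was 0.15. The share of such pairs among all genes was not computed. The median r of *Kmt2a* with all other genes tested was 0.03, and *Kmt2d*, the member closest to it, ranked 251st among them. The pattern is therefore not particular to these members. *Kmt2a* and *Kmt2d* had r = 0.83 (permutation p within groups 0.00038, 0.0137 adjusted over 36 pairs) and Spearman's rho = 0.79 (permutation p 0.00243, adjusted 0.0437). *Kmt2c* and *Kmt2d* had r = 0.74 (permutation p 0.000998, adjusted 0.018) and rho = 0.77 (permutation p 0.00066, adjusted 0.0238). Without the 2 animals farthest from the median of the first gene, r was 0.85 and 0.81 in these pairs. *Kmt2b* and *Kmt2d* had r = 0.85 and rho = 0.67 (adjusted permutation p 0.0468 and 0.151). The letter was part of this pattern. With group and letter means both removed, r was 0.73 for *Kmt2a* with *Kmt2d*, 0.63 for *Kmt2c* with *Kmt2d*, and 0.76 for *Kmt2b* with *Kmt2d*. It fell from 0.71 to 0.34 for *Kmt2a* with *Setd1b* and from 0.53 to 0.13 for *Kmt2b* with *Setd1b*, and the permutation p-values above do not hold the letter fixed. The median over the 15 pairs was then 0.34, with 14 pairs positive.

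**Figure D5:**
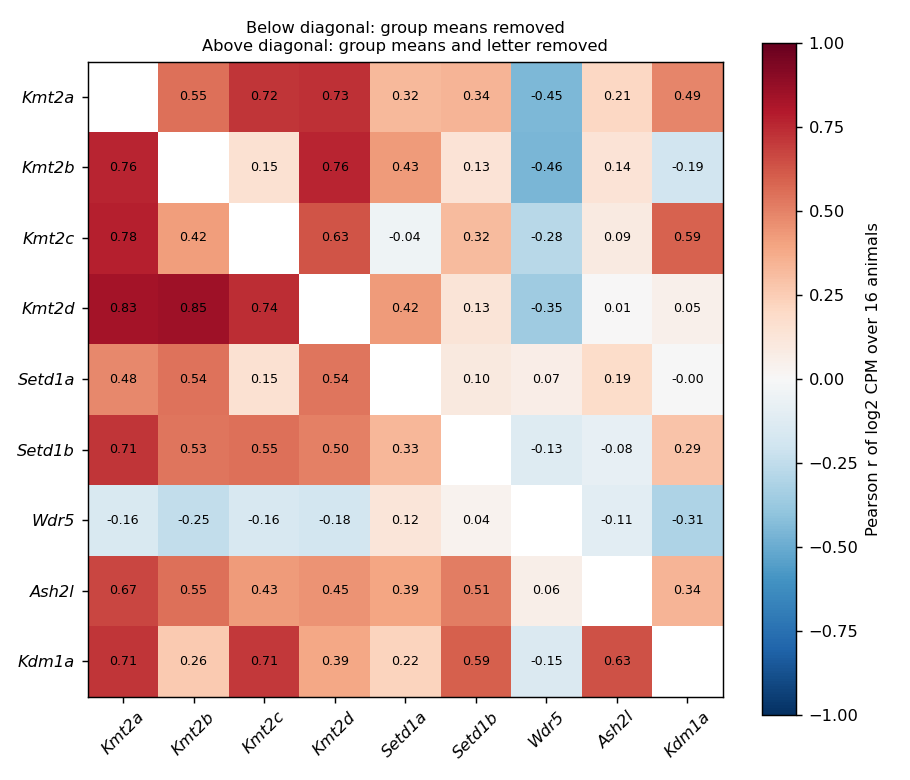
Pearson r of log2 CPM between each pair of genes over the 16 animals, with group means removed (below the diagonal) and with group and letter means removed (above it); red is positive and blue negative. The 15 pairs of methyltransferases run from 0.15 to 0.85 below the diagonal, and *Wdr5* stays between −0.25 and 0.12 with all other genes below the diagonal and reaches −0.46 above it, with *Kmt2b*.

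*Kdm1a* correlated with *Kmt2a* (r = 0.71 and rho = 0.65, adjusted permutation p 0.0468 and 0.0985) and *Kmt2c* (r = 0.71 and rho = 0.65, adjusted permutation p 0.053 and 0.0985), and its r was 0.26 with *Kmt2b* and 0.39 with *Kmt2d*. *Ash2l* had r = 0.67 with *Kmt2a* and 0.63 with *Kdm1a*, which became 0.21 and 0.34 once the letter was removed. No member passed for a relation to library size. The lowest unadjusted p was that of *Setd1b*, with r = −0.59 between its log2 CPM and the log2 total count within groups (permutation p 0.0265, 0.239 adjusted over 9 genes) and rho = −0.54 (permutation p 0.0535, adjusted 0.362). Without the 2 animals farthest from the median total, r was −0.46 for *Setd1b* and −0.55 for *Kdm1a*. Ranked by likeness to *Kmt2a* among the 17865 other genes, *Kmt2d* came 251st, *Kmt2c* 536th, *Kmt2b* 647th, *Setd1b* 1014th, and *Setd1a* 3427th. The gene closest to *Kmt2a* was ENSMUSG00000066306 (r = 0.96 over 16 animals) and the gene closest to *Kdm1a* was ENSMUSG00000038347 (r = 0.96). No source used here pairs these identifiers with a symbol.

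Of 62 other genes of the H3K4 pathway in fixed lists (COMPASS partners, other methyltransferases and demethylases, LSD1-CoREST partners, and readers), 1 could be matched to an identifier. This was *Bptf*, a reader of H3K4me and the large subunit of the NURF remodeller, at 126.2 to 132.9 CPM in WT males, 134.4 to 151.3 in the knockouts, 141.6 to 158.6 in WT females, and 141.3 to 147.4 in the heterozygotes. Its identifier came from the study's own list of changed genes, chosen on these animals, so its direction is not independent evidence. The *Bptf* ranges of the males did not overlap and those of the females did.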

How the data were processed

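Poly(A) RNA of P6 forebrain was sequenced in 16 animals. The authors mapped paired-end reads to mm10 with STAR 2.5.3a, removed duplicates, kept uniquely mapped reads, and deposited raw counts per Ensembl gene from featureCounts (Subread 1.5.0); the strand setting is not given in the sources used here. RNA isolation, library preparation, and sequencing formed a single batch per the study's methods. Groups came from the sample labels, and each animal was 1 replicate. No 2 animals of a group had counts that agreed within sampling noise (chi-square per gene 2.81 to 16.5 over 24 pairs).

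The quasi-likelihood test of edgeR 4.0.16 (R 4.3.3) was run on these counts after filterByExpr and TMM, with a mean for each group and no covariate in 1 fit of the 16 animals. Benjamini-Hochberg adjustment covered all 17866 genes that passed the filter, with a threshold of 0.1. Intervals of 95% came from that fit. It was also run on simulated counts, with changes in males larger than those of the members and no effect of the letter. The intervals were therefore not tested at effects of the members' size. DESeq2 1.42.0, other normalizations, filters, and subsets were alternatives. log2 CPM used a prior count of 2. Permutation tests (Python 3.11.15, SciPy 1.17.1) were two-sided, exact for 4 against 4, and within groups for correlations.

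The members and lists were chosen with earlier results of these data known. All 9 members are named; of the 5 genes nearest in pattern to *Kmt2a* and to *Kdm1a*, the first is given, since none is paired with a symbol. Symbols came from the definition of the 9 genes or from 1020 pairs in the study's supplementary material, whose values were not used; lists with under 80% of genes paired were not tested, and the choroid plexus sum rests on 2 of 7 genes. RefSeq (GRCm38.p6) gave gene spans but no transcript lengths or sequences, so levels were not compared between genes. The level of 1 matched marker is not reported here.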

Additional observations from a re-analysis of the deposited data

Results flagged for a closer look

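In 36 groups of 4 animals (9 genes, 4 groups), the highest animal stood apart from the others by Dixon's criterion in 2, where about 1 in 20 (1.8 groups) would be met by chance. *Kmt2a* was at 217.0 CPM in *Kdm5c*-HET female 8E, against 192.3 to 195.5 CPM in the other 3 heterozygotes. *Kmt2c* was at 118.1 CPM in WT male 1E, the only WT male of letter E, against 108.3 to 109.9 CPM in the other 3.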

How the results depend on the processing

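Of 450 values of Log2FC recomputed under other settings for the 63 results, 405 kept their direction and their side of the threshold; of 1008 values with 1 animal left out, 912 did. No estimate that changed sign had an edgeR q under 0.1. The cause was not tested for any change below. With the letter as a covariate, 1 member (*Setd1b*) was called in males and 1 (*Setd1b*) in females, where 0 had been, and 2 (*Setd1b* and *Kmt2a*) between mutant sexes. Estimates that changed sign in that fit were *Kmt2b* (−0.0063) and *Kmt2d* (−0.036) in males, *Kmt2a* (−0.0033) and *Kdm1a* (−0.014) in females, *Setd1a* for both sexes (−0.0084), *Ash2l* between WT sexes (−0.0054), and *Ash2l* (−0.012) and *Kdm1a* (−0.012) between mutant sexes. At an adjusted p under 0.05, 0 members were called for the mean genotype effect, 3 between WT sexes (*Kmt2c*, *Setd1a*, and *Setd1b*), and 0 between mutant sexes. Without a filter on low counts, *Kmt2d* also passed between WT sexes (6 members in all), and 2 members passed between mutant sexes. With only the 8 mutant animals in the fit, 0 passed between them. *Kdm1a* in females became −0.00028 in DESeq2 and −0.00092 with DESeq2's size factors.

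The subsets without animals high in *Ttr* and *Aqp1* were chosen after seeing the data. Without WT males 2D and 5D, 0 members were called between WT sexes, and the signs changed for *Kmt2d* (−0.0019) and *Setd1a* (−0.014) in males, *Setd1a* for both sexes (−0.021), *Ash2l* between WT sexes (−0.043), and *Setd1b* (−0.031) and *Ash2l* (−0.056) in the interaction. Without all 6 animals, 0 were called between WT sexes and 0 between mutant sexes, and the signs changed for *Kmt2d* (−0.000984) and *Setd1a* (−0.013) in males, *Kmt2a* (−0.12), *Ash2l* (−0.017), and *Kdm1a* (−0.057) in females, *Kmt2a* (−0.019), *Setd1a* (−0.032), and *Kdm1a* (−0.011) for both sexes, and *Wdr5* (−0.00031), *Ash2l* (−0.040), and *Kdm1a* (−0.0067) between mutant sexes.

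With 1 animal left out at a time, the members called ran from 0 to 1 for the mean genotype effect, 0 to 5 between WT sexes, 0 to 1 between mutant sexes, and 5 to 7 between letters; they stayed at 0 in males, females, and the interaction. Signs changed within these ranges: in males, *Kmt2b* (−0.022 to 0.097), *Kmt2d* (−0.061 to 0.12), and *Setd1a* (−0.0063 to 0.086); in females, *Kmt2a* (−0.0084 to 0.11), *Kmt2c* (−0.014 to 0.061), and *Kdm1a* (−0.028 to 0.042); in the interaction, *Kmt2a* (−0.0070 to 0.13), *Setd1b* (−0.035 to 0.035), and *Ash2l* (−0.028 to 0.042). For both sexes, *Kmt2b* ran from −0.058 to 0.000104 and *Setd1a* from −0.019 to 0.028, between WT sexes *Ash2l* ran from −0.019 to 0.048, and between letters *Wdr5* ran from −0.017 to 0.049. Between mutant sexes, *Kmt2d* ran from −0.022 to 0.16, *Wdr5* from −0.019 to 0.056, *Ash2l* from −0.021 to 0.048, and *Kdm1a* from −0.018 to 0.027. No paired analysis was possible because the labels give the groups no shared replicate numbers. The order of levels per transcript length, its alternative length, and the protein comparison were not run, since no lengths or sequences were used here. Each member had at least 487 counts in every animal.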
